A study of Mus musculus with 4 samples.

Results

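Tumour-infiltrating CD8 T cells that carried transcripts of both Xcl1 and Tnfrsf4 (OX40) are described here, and are called co-expressing cells. A cell was taken when it had a value for Cd8a or Cd8b1, for Xcl1 and for Tnfrsf4. It also had no value for Havcr2 (TIM-3), Gzmk or Klrg1 and a value for fewer than 2 of the cycling genes Mki67, Top2a and Birc5. The rule picked 357 of the 6965 cells of the series, 98 of the 1251 tumour CD137 minus CD8 cells and 259 of the 2747 tumour CD137 plus CD8 cells. The measured values of these same cells chose them, so the levels of the 10 genes in the rule are a description and carry no test.

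The cells came from bone marrow chimaeras, irradiated C57BL/6 mice given marrow of 2 donor strains. Marrow of Cd4creCd137fl/flROSA26tomato donors gave the CD137 minus cells, in which Cre driven by the Cd4 promoter deletes the loxP-flanked Cd137 gene (Tnfrsf9) in T cells. Marrow of Cd137fl/flROSA26tomato donors without Cre gave the CD137 plus cells, so the floxed gene and the reporter cassette are common to both. B16K1 cells, from the mouse melanoma B16, were injected under the skin, and CD8 T cells were isolated 21 days later from tumour and spleen. Cells of 7 mice were pooled into 1 library for each tissue and CD137 status, and the table does not assign cells to mice. With 1 library a group no test was possible, and intervals on shares (exact Clopper-Pearson, 95%) cover counting error only. The donors also differ in Cre, so CD137 loss cannot be told apart from Cre, donor or library.

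XCL1, encoded by Xcl1, is a chemokine of activated CD8 T cells and NK cells, and its receptor XCR1 marks the cross-presenting dendritic cells that prime CD8 T cells. OX40 is a costimulatory receptor of the TNF receptor superfamily that T cells display after antigen contact, and its ligand OX40L is encoded by Tnfsf4. CCL1 is the ligand of CCR8, and Penk encodes proenkephalin, the precursor of opioid peptides. CD137 is another TNF receptor family costimulator of activated T cells.

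Xcl1 lies on chromosome 1 at 164931644 to 164935527 of mm10 on the minus strand, and Ccl1 on chromosome 11 at 82176657 to 82305690 on the minus strand (GENCODE M21). Tnfrsf4 lies on chromosome 4 at 156013843 to 156016612 on the plus strand, followed by Tnfrsf18 (GITR) at 156026164 to 156028895 on the same strand. The 250 bases before the start of Xcl1 and of Ccl1 are shown because the first gene defines the cells and the second ranks first among the genes outside the rule by the smaller of its ratios in the 2 tumour libraries. Both were read from the RefSeq promoter table (GRCm38.p6), 5′ to 3′ on the gene's strand, chr1:164935523-164935772 for Xcl1 and chr11:82179813-82180062 for Ccl1. The Ccl1 window lies directly before its protein-coding transcripts, and the wider GENCODE span comes from 1 longer processed transcript. Capitals mark the letters of an NFAT core, GGAAAA on either strand.
Xcl1: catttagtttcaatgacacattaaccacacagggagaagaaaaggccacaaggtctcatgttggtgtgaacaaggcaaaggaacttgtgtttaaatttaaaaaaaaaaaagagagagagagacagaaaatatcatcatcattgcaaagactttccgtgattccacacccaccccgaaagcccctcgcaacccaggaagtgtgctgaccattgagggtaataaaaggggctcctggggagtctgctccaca
Ccl1: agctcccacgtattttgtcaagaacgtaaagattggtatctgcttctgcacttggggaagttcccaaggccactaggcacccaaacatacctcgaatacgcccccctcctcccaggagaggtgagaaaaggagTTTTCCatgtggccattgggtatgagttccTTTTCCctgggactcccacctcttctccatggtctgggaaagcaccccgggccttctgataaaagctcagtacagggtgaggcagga
The Ccl1 window held 2 such matches, both on the opposite strand, and the Xcl1 window none. GGAAAA was present in 20.6% of 27025 promoter windows of the same length, the AP-1 letters TGANTCA in 6.87% and the NF-kB consensus in 3.75%, both strands searched and overlaps between motifs allowed. Of the 12 genes named below as higher, 9 had a window in the table, of which 1 held the NFAT letters (Ccl1), 1 the NF-kB consensus (Ramp3) and 0 the AP-1 letters. A match is a description of letters.

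Each deposited value is the natural logarithm of a whole number, here called a corrected count, after 1 was added. The 4 libraries held 473 to 2766 cells with median totals of 3702 to 5344 corrected counts per cell, and the median was 4834 in tumour CD137 minus and 3702 in tumour CD137 plus. Of the 4 libraries' barcodes, 38 cells had one that also occurred in another library, and 0 co-expressing cells did. The labels disagree on the reporter, since CD137ko cells are tomato negative in the source names and CD137 minus cells tomato positive in the sorting protocol. The groups follow CD137 status. No doublet caller was run. Co-expressing cells had more genes detected than the other tumour CD8 cells, with medians of 2005 against 1401 in CD137 minus and 1705 against 1266 in CD137 plus. Their median totals were 5283 against 4777 and 4043 against 3611, and mitochondrial shares were 1.77% against 1.99% and 1.31% against 1.35%. More than 1 Trbv segment was seen in 31.6% of co-expressing cells, against 35.0% of the others, in CD137 minus, and in 38.2%, against 35.5%, in CD137 plus. More than 1 Trav segment was seen in 30.6%, against 20.8%, in CD137 minus and in 35.1%, against 21.7%, in CD137 plus. The part of detection depth and of doublets in the results was not tested.

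Co-expressing cells made up 7.83% (6.41 to 9.46) of CD8 cells in the CD137 minus tumour library and 9.43% (8.36 to 10.6) in the CD137 plus one, and the intervals overlap. The overlap holds at the unequal totals of the 2 libraries. With every cell thinned to 2900 counts before the selection, the CD137 minus share was 6.30%, below its interval, and the CD137 plus share stayed within its own. Of the CD8 cells that passed the exclusions on TIM-3, granzyme K, KLRG1 and cycling, they were 10.5% (8.57 to 12.6) in CD137 minus and 14.7% (13.1 to 16.4) in CD137 plus. These intervals do not overlap, and they cover counting error only. The base of these shares differs, since 74.9% of CD137 minus and 64.1% of CD137 plus CD8 cells passed the exclusions. With no exclusion at all, cells with both transcripts were 11.3% (9.57 to 13.2) of CD8 cells in CD137 minus and 12.3% (11.1 to 13.6) in CD137 plus, and these intervals overlap. In the spleen 2 of 2444 CD137 minus CD8 cells (0.0818%) and 0 of 469 CD137 plus CD8 cells met the rule, the second of which allows a share of up to 0.640% by 3 counts of the total and 0.783% by the exact interval. Xcl1 alone had a value in 7.82% and 11.3% of the spleen CD8 cells and Tnfrsf4 in 0.859% and 1.71%. In the tumour, Tnfrsf4 was more frequent where Xcl1 was present. Tnfrsf4 had a value in 28.1% (23.4 to 33.1) of CD137 minus cells with Xcl1 and in 8.16% (6.08 to 10.7) of those without, within the exclusions. In CD137 plus the shares were 39.2% (35.4 to 43.0) with Xcl1 and 15.4% (13.3 to 17.6) without. Both genes belong to the rule, so this is a description. The median number of genes detected was 2005 with both transcripts and 1252 with neither in CD137 minus, and 1705 and 1136 in CD137 plus. The part of this in the joint presence of the 2 transcripts was not tested.

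The exclusions removed 43 of 141 cells with both transcripts in CD137 minus and 78 of 337 in CD137 plus. Havcr2 removed 25 and 46 of these, Gzmk 16 and 31, Klrg1 2 and 3, and cycling genes 10 and 8, and a cell could fail several. The limit of the rule is 1 corrected count. Just inside it, 18 CD137 minus and 50 CD137 plus cells had exactly 1 Xcl1 count, 34 and 99 exactly 1 Tnfrsf4 count, and 11 and 29 exactly 1 of both. Just outside it stood 251 and 402 cells with Xcl1 but no Tnfrsf4, and 48 and 169 with Tnfrsf4 but no Xcl1. Median Xcl1 counts were 5.5 in CD137 minus and 5.0 in CD137 plus co-expressing cells, with maxima of 129 and 140. A single count of Xcl1 is a weak criterion by itself. Among Lef1-positive cells, a term used here for those with Lef1 but no Pdcd1 or Havcr2, Xcl1 had a value in 26.1% of CD137 minus and 22.6% of CD137 plus cells. Tnfrsf4 had one in 2.28% and 3.21% of them, at median totals of 4863 and 3839.

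Ccl1 and Penk were given as markers of these cells and were not used by the rule. They were chosen with earlier results of these data known, so their values describe the cells and do not test the label. Ccl1 had a value in 19.4% (12.1 to 28.6) of CD137 minus co-expressing cells, against 3.99% of the other CD8 cells and 2.03% of the Lef1-positive cells. In CD137 plus it had one in 29.7% (24.2 to 35.7), against 5.18% and 2.40%. Penk had a value in 21.4% (13.8 to 30.9) of CD137 minus co-expressing cells, against 5.72% of the others, and in 19.3% (14.7 to 24.6) of CD137 plus ones, against 4.94%. Both markers were thus several times more frequent than in other cells, and both were absent from most co-expressing cells. Markers of other cell types were near 0 except those of NK cells. Melanoma genes (5 measured) summed to 12 CPM in CD137 minus co-expressing cells, against 36.6 in the others, and to 20.8, against 34.9, in CD137 plus, with Mlana, Tyrp1 and Mitf at 0 in the CD137 minus ones. Macrophage genes (3 measured) summed to 20.0, against 8.57, and to 22.7, against 11.3. B cell genes (3 measured) summed to 8.00, against 9.48, and 2.97, against 8.60, and dendritic genes (4 measured) to 8.00, against 23.2, and 5.93, against 25.3. Cd4 and Foxp3 summed to 12, against 5.29, and 2.97, against 4.24, and gamma delta genes (2 measured) to 10.00, against 3.65, and 1.98, against 5.12. Cd79a and Ms4a1 were at 0 in both, Foxp3 at 0 in CD137 minus and Cd4 at 0 in CD137 plus. NK genes (4 measured) summed to 132, against 151, and 156, against 203, with Klrb1c at 0 in both sets of co-expressing cells and Tyrobp at 0 in CD137 minus. At least 1 NK gene had a value in 33.7% of CD137 minus co-expressing cells, against 20.5%, and in 37.5%, against 28.4%, in CD137 plus, and the part of such cells in the results was not tested. CPM here are corrected counts summed over a set of cells and scaled to 1e+06.

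Against the other tumour CD8 cells of the same library, the co-expressing cells had higher levels of some ligand genes (Ccl1, Penk, Tnfsf4, Tnfsf11) and of Ccr8, Tnfrsf18 and Cd160. Other ligand genes, such as Fasl (0.71 and 0.01), Tnfsf10 (1.73 and 0.75) and Ltb (0.16 and 0.13, log2 ratios in CD137 minus and plus), were not past the limit in both libraries. Transcripts of naive and circulating cells (Lef1, Klf2, Id3) were lower, as were Ccl5 and Ly6c2, while most of the tested cytotoxic and effector genes were not. Of 2774 genes with enough signal, 58 (2.09%) were at least 2-fold higher, that is past a log2 ratio of 1, in both libraries and 27 (0.973%) lower. The median log2 ratio of all tested genes was 0.20 in CD137 minus and 0.14 in CD137 plus, and relative to it 40 genes were higher and 33 lower. On mean log values per cell, not scaled to the total of each cell, 0 were higher and 2 lower. In CD137 minus alone 156 (5.62%) were higher and 52 (1.87%) lower, and in CD137 plus alone 76 (2.74%) and 30 (1.08%). The rule picked the cells by values from these same profiles, so the counts are a description. Compared with other cells matched on the number of genes detected, 34 were higher and 26 lower, of which 25 and 16 were among the 58 and 27.

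**Figure D1:**
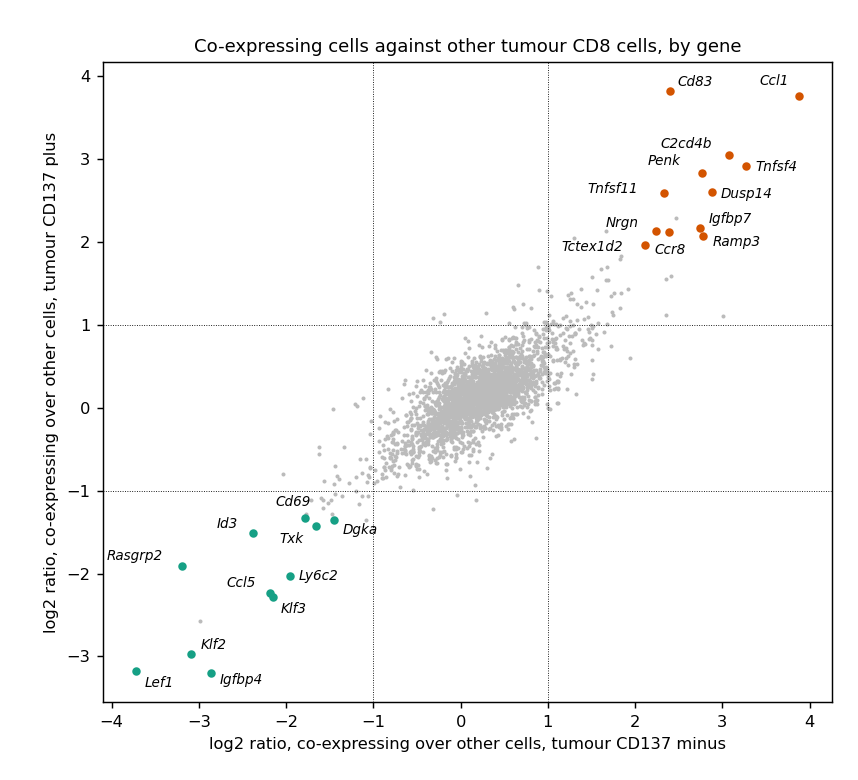
Log2 ratio of CPM (pseudocount 1 CPM) in co-expressing over other tumour CD8 cells for each of 2774 tested genes, CD137 minus on the x axis and CD137 plus on the y axis. Orange and green points are the 12 genes named as higher and 11 of those lower, grey points all others, and dotted lines the limit of 1; Ccl1 lies at 3.88 and 3.76, Lef1 at -3.72 and -3.17.

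Among secreted factors, Ccl1 stood at 470 CPM in CD137 minus co-expressing cells, against 31.0 in the other CD8 cells, and at 584, against 42.1, in CD137 plus. The log2 ratios were 3.88 and 3.76, and 2.91 and 3.66 without the highest cell of each set. Most of that signal came from few cells, since the 10 highest of the 98 CD137 minus co-expressing cells held 95.3% of the Ccl1 counts there, and the 26 highest of the 259 CD137 plus ones 86.3%. In CD137 minus 1 cell had 151 counts, and the level without it was 170 CPM, against 492 CPM in CD137 plus without its top cell. Penk stood at 328 CPM, against 47.4, in CD137 minus and at 355, against 48.9, in CD137 plus (log2 ratios 2.76 and 2.84). It too was concentrated, and without the top cell the levels were 194 and 270 CPM. Ccl5, a chemokine of memory and effector CD8 cells, was at 992 CPM, against 4528, in CD137 minus and at 1587, against 7444, in CD137 plus (log2 ratios -2.19 and -2.23). The other cells include those with Havcr2, Gzmk or Klrg1, which the rule removed from the co-expressing cells. Against other cells with the same exclusions the Ccl5 ratios were smaller in size, at -1.58 and -1.50. Ccl5 was the only tested chemokine of the list past the limit in the low direction in both libraries. Of 12 tested cytokine and chemokine genes, Ccl1, Penk and Areg were higher in both libraries, Ccl5 was lower, and 8 did not pass in both, with list medians of 0.53 in CD137 minus and 0.83 in CD137 plus. Ccl3 (-1.20 and -0.83), Ccl4 (-1.57 and -0.89) and Tnf (-0.16 and -0.84) had log2 ratios below 0 in both, and Ifng was at -0.23 in CD137 minus and 1.03 in CD137 plus.

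Among TNF family ligands, Tnfsf4, the ligand of OX40 itself, stood at 72.0 CPM in CD137 minus co-expressing cells, against 6.56 in the others, and at 89.0, against 10.9, in CD137 plus. Its log2 ratios were 3.27 and 2.92, with a value in 24.5% (16.4 to 34.2) and 21.6% (16.8 to 27.1) of co-expressing cells. Transcripts of OX40 and of its ligand were thus found in the same cells in about that share. Tnfsf11, encoding RANKL, stood at 132 CPM, against 25.5, in CD137 minus and at 231, against 37.6, in CD137 plus (log2 ratios 2.33 and 2.59). Tnfrsf18, encoding the costimulatory receptor GITR, was at 312 CPM, against 131, and at 409, against 164 (log2 ratios 1.25 and 1.32). These were the 3 of 10 tested costimulatory genes past the limit in both libraries, none was lower, and the list medians were 0.93 and 0.44. Cd27 (0.40 and 0.46), Cd28 (-0.07 and 0.16) and Cd226 (0.04 and -0.06) were near the median of all genes.

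Ccr8, the receptor for CCL1, stood at 262 CPM in CD137 minus co-expressing cells, against 49.2 in the others, and at 215, against 48.5, in CD137 plus (log2 ratios 2.39 and 2.12). It had a value in 58.2% (47.8 to 68.1) and 46.7% (40.5 to 53.0) of the co-expressing cells, so ligand and receptor transcripts were both raised in the same set of cells. Of 11 tested residency and homing genes Ccr8 was higher in both libraries, and Cd69 (-1.79 and -1.33) and the integrin gene Itgb7 (-1.47 and -1.28) were lower. The list medians were 0.63 and 0.07. Cd83, a surface protein best known from mature dendritic cells, stood at 66.0 CPM, against 11.7, in CD137 minus and at 143, against 9.25, in CD137 plus (log2 ratios 2.40 and 3.82). Ramp3, a partner protein of G protein-coupled peptide receptors, had log2 ratios of 2.78 and 2.08. The other genes named as higher were C2cd4b (3.07 and 3.04), Dusp14 (2.88 and 2.60), a phosphatase of the dual-specificity family, Igfbp7 (2.74 and 2.17), a secreted binding protein, Nrgn (2.24 and 2.13), encoding neurogranin, a calmodulin-binding protein, and Tctex1d2 (2.11 and 1.96). Of these Nrgn was the most widely seen, in 69.4% and 66.4% of co-expressing cells, against 16.9% and 21.6% of the others. With cells matched on the number of genes, Tctex1d2 was short of the limit in CD137 minus, at 0.83. Nrgn (1.39) and Ccr8 (1.64) were smaller there, while Ccl1 (4.62) was larger.

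Among inhibitory receptors, Pdcd1 (PD-1) had a value in 85.7% (77.2 to 92) of CD137 minus co-expressing cells, against 37.2% of the others, and in 80.7% (75.4 to 85.3), against 52.9%, in CD137 plus. Its levels were 934 CPM, against 314, and 803, against 490.5, so the log2 ratio passed the limit in CD137 minus (1.57) and not in CD137 plus (0.71). Lag3 behaved alike, at 1.36 and 0.95. Cd160, a receptor for HVEM, was at 258 CPM, against 71.7, and at 186, against 70.4 (log2 ratios 1.83 and 1.39). With Pdcd1lg2, encoding the PD-1 ligand PD-L2 (2.35 and 1.55), it made 2 of 7 tested genes of the list past the limit in both libraries, with list medians of 1.51 and 0.78. Of 14 tested transcription factors and other genes induced through the T cell receptor, Irf8 (1.04 and 1.35) and Batf (1.02 and 1.12) were higher in both, none was lower, and the list medians were 0.93 and 0.48. Nr4a1 (-0.01 and -0.25) and Egr1 (-0.86 and -0.84), which are induced within minutes of receptor contact, were not raised. The related genes Nr4a2 (1.06 and 0.56) and Nr4a3 (0.78 and 0.55) were above 0 in both libraries but not past the limit in both. Tox was at 1.27 and 0.40.

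Of 11 tested naive and stem-like genes, 6 were lower in both libraries and none was higher, with list medians of -1.77 in CD137 minus and -1.28 in CD137 plus. Lef1, a transcription factor of naive T cells, was at 14.0 CPM in CD137 minus co-expressing cells, against 197 in the others, and at 12.9, against 124, in CD137 plus (log2 ratios -3.72 and -3.17). Klf2, which keeps the genes of circulation on, was at 192 CPM, against 1639, and at 157, against 1241 (-3.09 and -2.97). Igfbp4 followed at -2.87 and -3.20, Id3 at -2.38 and -1.51 and Satb1 at -1.77 and -1.28. Tcf7, the factor of stem-like T cells, did not pass the limit, at 62.0 CPM, against 105, and 53.4, against 80.7. Ccr7 was above 0 at 0.66 and 1.48. The list thus did not move as a whole. The other genes named as lower were Klf3 (-2.15 and -2.28), Rasgrp2 (-3.19 and -1.90), Txk (-1.66 and -1.43) and Dgka (-1.45 and -1.35), the last 3 of which act in signalling below the T cell receptor. With cells matched on the number of genes, Klf3 (-0.83) and Txk (-0.76) were short of the limit in CD137 minus, while Lef1 (-2.82) and Klf2 (-2.01) were still past it. Of 8 tested cytotoxic and effector genes, Gzmb (-1.06 and -1.06) and Ly6c2 (-1.96 and -2.04) were lower and none was higher. Prf1 (0.18 and -0.17), Nkg7 (0.35 and -0.01), Tbx21 (0.81 and 0.29) and Klrd1 (0.70 and 0.25) were not past the limit, with list medians of 0.27 and 0.02. Of the genes that failed the filter, Gzma (-4.95 and -5.61), Gzmm (-1.32 and -3.99), S1pr5 (-1.59 and -2.69) and Eomes (-1.52 and -0.66) were below 0 in both libraries. Zeb2 (1.94 and 0.39) and Cx3cr1 (1.49 and 0.39) were above 0 in both. Gzma had a value in less than 10% of the cells of each set. For all these cytotoxic and effector genes the other cells include those with Havcr2, Gzmk or Klrg1, which the rule removed from the co-expressing cells. Their lower levels are therefore a description, and the part of that removal in them was not tested.

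Few genes of the remaining lists were past the limit in both libraries. Bcl2a1d (1.33 and 1.25) was the 1 of 14 tested NF-kB pathway genes past the limit in both libraries, with list medians of 0.48 and 0.82, and its near-identical copies make its counts uncertain. Odc1, the first enzyme of polyamine synthesis, at 1.03 and 1.02, was the 1 of 19 biosynthesis genes, with list medians of -0.11 and 0.19. Among 13 dissociation stress genes Fos (-1.72 and -1.11), Jun (-1.36 and -1.07) and Hspa1a (-1.52 and -1.14) were lower, with list medians of -0.83 and -0.53. The lists of IL-2 and STAT5 genes (9 tested), glycolysis (11), cell cycle (4), interferon response (7) and the T cell receptor complex (12) held 0 genes past the limit in both libraries. Their medians in CD137 minus and CD137 plus were -0.29 and 0.03, 0.55 and 0.22, -0.32 and -0.28, -0.36 and -0.22, and 0.12 and -0.01.

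**Figure D2:**
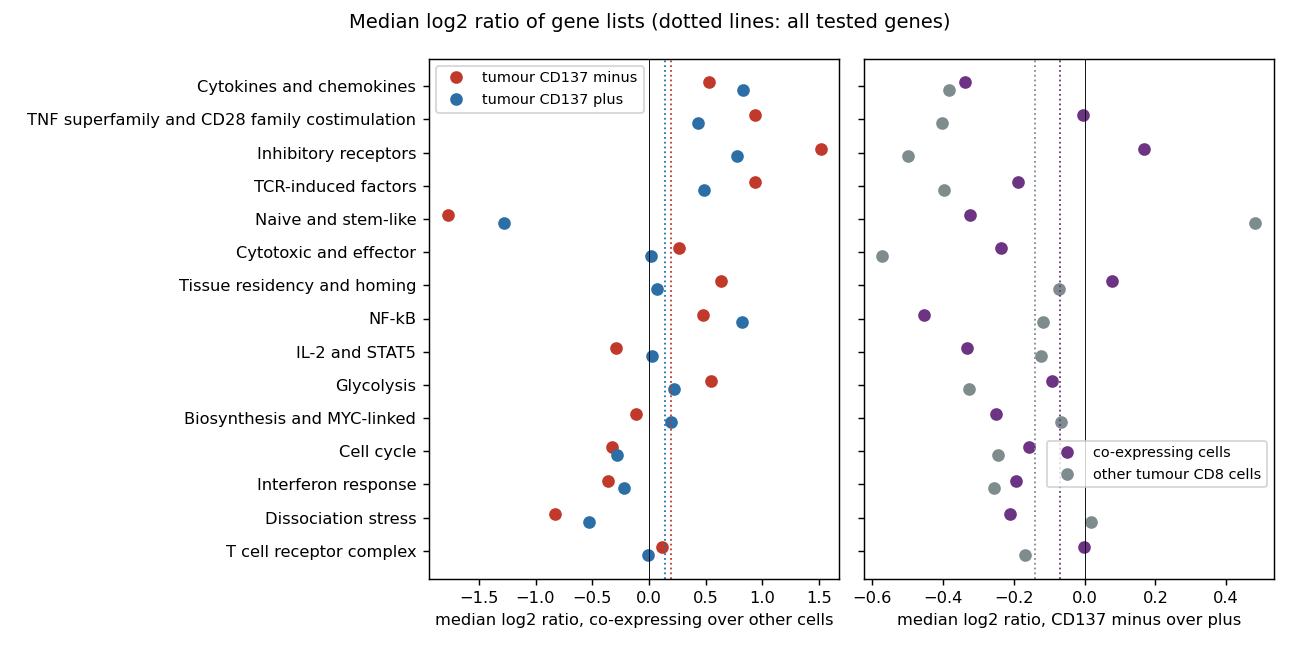
Median log2 ratio of the tested genes of each list, for co-expressing over other tumour CD8 cells in each library (left) and for CD137 minus over CD137 plus cells (right), with the median of all tested genes as dotted lines. On the left the naive and stem-like list is lowest, at -1.77 and -1.28, and the inhibitory receptors are at 1.51 and 0.78; on the right the NF-kB list stands at -0.45 in co-expressing and -0.12 in other cells.

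In Ccl1, Cd83 and Tnfsf4, cells with only 1 of the defining transcripts lay between those with both and those with neither. Ccl1 had a value in 19.4% of CD137 minus cells with both, against 3.59% with Xcl1 only and 10.4% with Tnfrsf4 only, and in 29.7% of CD137 plus cells with both, against 8.46% and 10.1%. Cd83 had one in 20.4% with both, against 3.98% and 8.33%, in CD137 minus and in 27.4%, against 4.98% and 2.96%, in CD137 plus. Tnfsf4 had one in 24.5% with both, against 1.20% and 10.4%, in CD137 minus and in 21.6%, against 3.98% and 4.73%, in CD137 plus. Cells with neither had 2.22% and 1.40% for Ccl1, 1.67% and 1.07% for Cd83 and 0.370% and 1.5% for Tnfsf4 in CD137 minus and plus. In each of these genes the share with both transcripts was higher than with either alone. Pdcd1 had a value in 85.7% of CD137 minus and 80.7% of CD137 plus co-expressing cells, against 75% and 74.6% of cells with Tnfrsf4 only and 35.1% and 48.5% with Xcl1 only. Klf2 had one in 24.5% and 23.2% of co-expressing cells, against 76.5% and 60.2% of cells with Xcl1 only. These sets differ in the median number of genes as well, with 1457 and 1313 for Xcl1 only and 1888 and 1546 for Tnfrsf4 only.

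Cells with TIM-3 and PD-1, the pattern of exhausted T cells, were the nearest set in Nrgn and Lag3. The median number of genes was 2005 in CD137 minus and 1705 in CD137 plus co-expressing cells, against 1998 and 1766 in TIM-3 PD-1 cells. Cd160 had a value in 63.3% and 46.7% of CD137 minus and plus co-expressing cells, against 29.2% and 25.1% of TIM-3 PD-1 cells. Cd83 had one in 20.4% and 27.4%, against 1.04% and 3.48%. Prf1, encoding perforin, had one in 23.5% (15.5 to 33.1) and 29.0% (23.5 to 34.9) of co-expressing cells, against 55.2% and 53.3% of TIM-3 PD-1 cells. Ccl3 and Gzmb were likewise less frequent in co-expressing cells, at 17.3% and 25.5%, against 43.8% and 50.9%, for Ccl3 and at 11.2% and 15.4%, against 22.9% and 39.7%, for Gzmb. Lag3 differed less, at 83.7% and 78.8%, against 88.5% and 82.6%. Havcr2 was an exclusion of the rule, so the separation of these sets by TIM-3 is not a result.

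**Figure D3:**
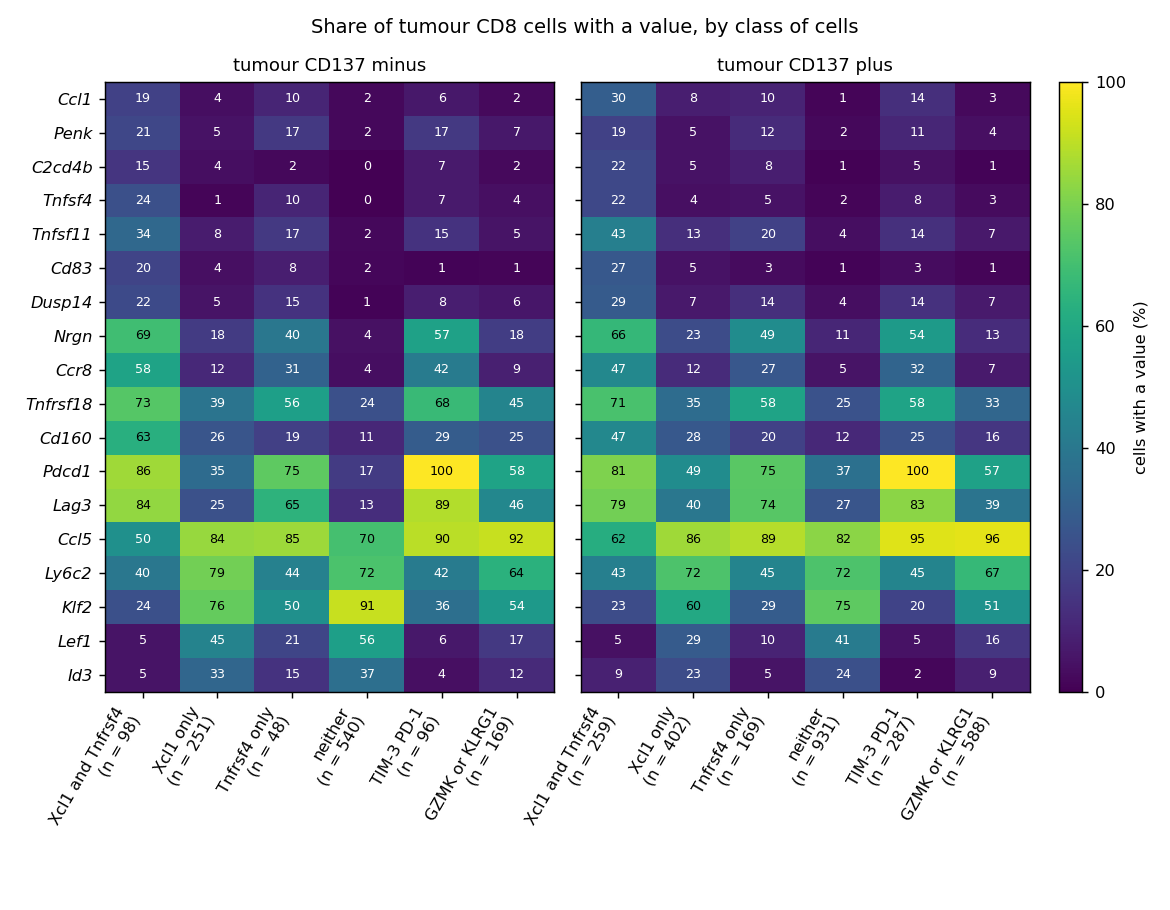
Share of tumour CD8 cells with a value (%, printed in each square) for 18 genes in rows and 6 sets of cells in columns, CD137 minus left and CD137 plus right, with the number of cells under each column. Ccl1 stands at 19.4% and 29.7% in the co-expressing cells of the first column, and Nrgn at 69.4% and 66.4%.

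Inside the co-expressing cells Ccl1, Cd83 and Tnfsf4 were more frequent at higher Xcl1 levels, while Penk and Ifng showed no steady order in both libraries. Ccl1 had a value in 4.17% of CD137 minus cells at 1 to 2 Xcl1 counts, 16% at 3 to 5 and 28.6% (16.6 to 43.3) at 6 or more. In CD137 plus the shares were 9.88%, 27.9% and 44.4% (35.3 to 53.9). Cd83 showed the same order, with 8.33%, 16% and 28.6% in CD137 minus and 13.6%, 19.7% and 41.0% in CD137 plus. Tnfsf4 did so as well, with 12.5%, 20.0% and 32.7%, and 8.64%, 14.8% and 34.2%. Penk stood at 12.5%, 28.0% and 22.4% in CD137 minus and 12.3%, 8.20% and 29.9% in CD137 plus, and Ifng at 41.7%, 24% and 34.7% and 49.4%, 59.0% and 55.6%. Ccr8 had no steady order either, with 37.5%, 68.0% and 63.3% in CD137 minus and 40.7%, 50.8% and 48.7% in CD137 plus. The lowest bin in CD137 minus held 24 cells. Its intervals for Ccl1 (0.105 to 21.1), Cd83 (1.03 to 27.0) and Tnfsf4 (2.66 to 32.4) overlapped those of the highest bin there, 16.6 to 43.3, 16.6 to 43.3 and 19.9 to 47.5. The median number of genes in the 3 bins was 1930, 2081 and 2013 in CD137 minus and 1685, 1578 and 1807 in CD137 plus. By Tnfrsf4 level, Cd83 was in 11.8% of CD137 minus cells with 1 count and 30.0% of those with 3 or more, and in 12.1% of CD137 plus cells with 1 count and 46 of the 92 with 3 or more. Ccl1 and Penk overlapped in part. Penk was found in 36.8% (16.3 to 61.6) of CD137 minus cells with Ccl1 and 17.7% (10.0 to 27.9) of those without, and in 33.8% (23.4 to 45.4) and 13.2% (8.64 to 19.0) in CD137 plus. Tnfsf11 had a value in 12 of the 24 CD137 minus cells with Tnfsf4 and 28.4% of those without, and in 60.7% (46.8 to 73.5) and 38.4% (31.7 to 45.5) in CD137 plus.

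**Figure D4:**
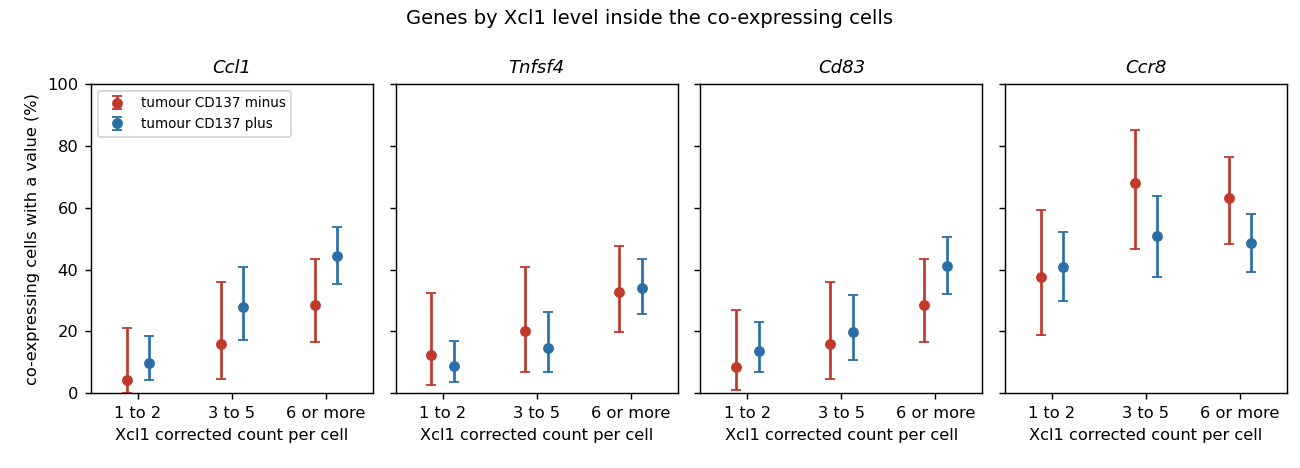
Share of co-expressing cells with a value for Ccl1, Tnfsf4, Cd83 and Ccr8 (y axis, %) by the Xcl1 corrected count of the cell (x axis), CD137 minus in red and CD137 plus in blue, with exact 95% binomial intervals. Ccl1 stands at 4.17%, 16% and 28.6% in CD137 minus and at 9.88%, 27.9% and 44.4% in CD137 plus.

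CD137 minus and CD137 plus were then compared within the co-expressing cells. Tnfrsf9, the deleted gene, was at 158 CPM in CD137 minus and 776 CPM in CD137 plus (log2 ratio -2.29). It had a value in 48.0% (37.8 to 58.3) of CD137 minus cells and 78.8% (73.3 to 83.6) of CD137 plus cells, and in 38.8% and 73.4% after every cell was thinned to 2900 counts. The level was thus lower where the labels say CD137 minus, but transcript was not absent, and no source used here says which exons the loxP sites flank. In the other tumour CD8 cells Tnfrsf9 had a value in 13.3% of CD137 minus and 41.9% of CD137 plus cells, and in 1.52% and 10.02% of Lef1-positive cells. In both libraries it was more frequent among co-expressing cells than among the others.

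Of 3231 tested genes, 15 (0.464%) were at least 2-fold higher in CD137 minus and 36 (1.11%) lower. The median log2 ratio was -0.07, and relative to it 23 genes were higher and 30 lower. On mean log values per cell 12 genes were higher and 0 lower, and 0 of those 12 were among the 15. These means were not scaled to the total of each cell, and median totals were 5283 in CD137 minus and 4043 in CD137 plus. They are therefore not a like-for-like check. In the other tumour CD8 cells the 3231 genes gave 8 (0.248%) higher and 15 (0.464%) lower. Of the 36 lower genes, 8 also passed the limit in the other cells and 9 had the opposite sign there, and of the 15 higher genes 3 and 8. After thinning every cell before the selection, 92 genes were higher and 86 lower, of which 7 and 19 were among those 15 and 36. The shares of cells below are therefore given with their intervals.

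Of the genes lower in CD137 minus, Ifng, the gene of interferon gamma, was at 174 CPM in CD137 minus and 701 CPM in CD137 plus (log2 ratio -2.01). It had a value in 33.7% (24.4 to 43.9) of CD137 minus and 54.4% (48.2 to 60.6) of CD137 plus co-expressing cells, and in 21.4% and 47.9% after thinning. In CD137 plus 1 cell had 173 counts, and without the top cell of each library the levels were 139 and 532 CPM. Among the other tumour CD8 cells the shares were 27.1% in CD137 minus and 37.0% in CD137 plus (log2 ratio -0.74). Il2ra, the alpha chain of the IL-2 receptor, had a value in 10.2% (5.00 to 18.0) of CD137 minus and 22% (17.1 to 27.6) of CD137 plus co-expressing cells, at 28.0 and 79.1 CPM (log2 ratio -1.47). After thinning the shares were 5.10% (1.68 to 11.5) and 18.5% (14.0 to 23.8). In the other cells it stood at 5.38% and 4.46% (log2 ratio 0.41). The chemokine genes Ccl3, at 68.0 and 231 CPM (log2 ratio -1.75), and Ccl4, at 112 and 417 CPM (-1.89), were lower, and in the other cells their ratios were -1.39 and -1.21. Their shares of cells overlapped in interval, 17.3% (10.4 to 26.3) and 25.5% (20.3 to 31.2) for Ccl3 and 23.5% (15.5 to 33.1) and 29.7% (24.2 to 35.7) for Ccl4. Cd81, a tetraspanin, had a log2 ratio of -1.74 with shares of 13.3% (7.26 to 21.6) in CD137 minus and 19.3% (14.7 to 24.6) in CD137 plus. The other genes named as lower were Nup214 (-1.43), Erh (-1.43), Endod1 (-1.39), Elavl1 (-1.35), Rara (-1.35) and Cd9 (-1.33), with log2 ratios of -0.11, -1.38, -0.39, -0.45, 0.11 and 0.44 in the other cells. Il2ra, Cd81, Nup214, Erh, Endod1, Elavl1, Rara and Cd9 passed the filter through CD137 plus only.

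Of the genes higher in CD137 minus, Ier5l, an immediate early response gene, was at 142 CPM in CD137 minus and 50.4 CPM in CD137 plus (log2 ratio 1.47). It had a value in 48.0% (37.8 to 58.3) of CD137 minus and 16.6% (12.3 to 21.7) of CD137 plus co-expressing cells, and in 31.6% (22.6 to 41.8) and 12.7% (8.94 to 17.4) after thinning. In the other tumour CD8 cells the shares were 12.3% and 10.2%. Zeb2, a transcription factor of effector cells, had a value in 31.6% (22.6 to 41.8) of CD137 minus and 11.2% (7.63 to 15.7) of CD137 plus cells, and in 20.4% (12.9 to 29.7) and 8.11% (5.09 to 12.1) after thinning (log2 ratio 1.22). Sema4c had one in 32.7% (23.5 to 42.9) and 14.3% (10.3 to 19.1), but in 19.4% (12.1 to 28.6) and 12% (8.28 to 16.6) after thinning (log2 ratio 1.07). Cebpb, a transcription factor, had one in 45.9% (35.8 to 56.3) and 18.5% (14.0 to 23.8), and in 24.5% (16.4 to 34.2) and 15.1% (10.9 to 20.0) after thinning (log2 ratio 1.00). In the other tumour CD8 cells Cebpb stood at 39.5% and 32.6%. The intervals of Ier5l and Zeb2 stayed apart after thinning, and those of Sema4c and Cebpb did not. These genes were picked for their ratios and the intervals cover counting error only, so intervals that stay apart are a description and no test. Areg, encoding the growth factor amphiregulin, had a log2 ratio of 1.24 that rested on 1 CD137 minus cell with 36 counts. Without the top cell of each library it stood at 70.7 CPM in CD137 minus and 51.7 CPM in CD137 plus, and thinning before the selection turned the ratio to -1.30. The other genes named as higher, 11 in all, were Mfsd1 (1.24), Slc16a3 (1.19), Arl5b (1.14), Ep300 (1.08), Crtc3 (1.04) and Srpk2 (1.00). Zeb2, Sema4c, Mfsd1, Slc16a3, Arl5b, Ep300 and Crtc3 passed the filter through CD137 minus only. Without the highest cell of each library Areg (0.45), Ep300 (0.89), Crtc3 (0.99) and Srpk2 (0.89) were short of the limit.

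Of the 12 genes named as higher in co-expressing cells, Cd83 was past the limit between CD137 minus and CD137 plus and 11 were not, but for Ccl1 this turned on 1 cell. Cd83 was at 66.0 CPM in CD137 minus and 143 CPM in CD137 plus (log2 ratio -1.11), with shares of 20.4% (12.9 to 29.7) and 27.4% (22.1 to 33.3) that overlap in interval. Ccl1 had a log2 ratio of -0.31, and of -1.53 without the highest cell of each library, at 170 CPM in CD137 minus and 492 CPM in CD137 plus. Tnfsf11 had a log2 ratio of -0.81, Tnfsf4 of -0.30, Penk of -0.11 and Ccr8 of 0.29, and without the highest cells of -0.93, -0.44, -0.48 and 0.26. The Ccl1 shares of 19.4% and 29.7% overlapped in interval, as did those after thinning, 13.3% (7.26 to 21.6) and 26.3% (21.0 to 32.1). Of 12 tested cytokine and chemokine genes Areg was higher and Ccl3, Ccl4, Ifng and Lta were lower, with a list median of -0.34, against -0.38 in the other cells. The 16 tested NF-kB genes had a median of -0.45, against -0.12 in the other cells and -0.07 for all genes. Nfkbie (46.0 and 50.4 CPM) and Tnip1 (42.0 and 56.4 CPM) passed the filter through CD137 plus only. Of the NF-kB genes not tested, Birc3 (0.37) and Map3k14 (0.45) were above 0 and Traf2 (-0.17) and Traf3 (-0.17) below. Bcl2a1d (-1.18) was the one tested gene of the list past the limit. Relb was at -0.61, Nfkb2 at -0.53 and Nfkb1 at -0.43. Of 11 IL-2 and STAT5 genes Il2ra was lower (median -0.33), of 13 stress genes Fosb (-1.05) and Atf3 (-1.07) were lower (-0.21), and of 9 cytotoxic genes Zeb2 was higher and Gzmb (-1.06) lower (-0.24). Of 14 glycolysis genes Slc16a3, a lactate transporter, was higher (median -0.09). The lists of costimulation (12 tested, median -0.00366), inhibitory receptors (9, 0.17), T cell receptor-induced factors (14, -0.19), naive and stem-like genes (7, -0.32), residency (11, 0.08), biosynthesis (19, -0.25), cell cycle (4, -0.16), interferon response (7, -0.20) and the T cell receptor complex (12, -0.00187) held 0 genes past the limit.

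**Figure D5:**
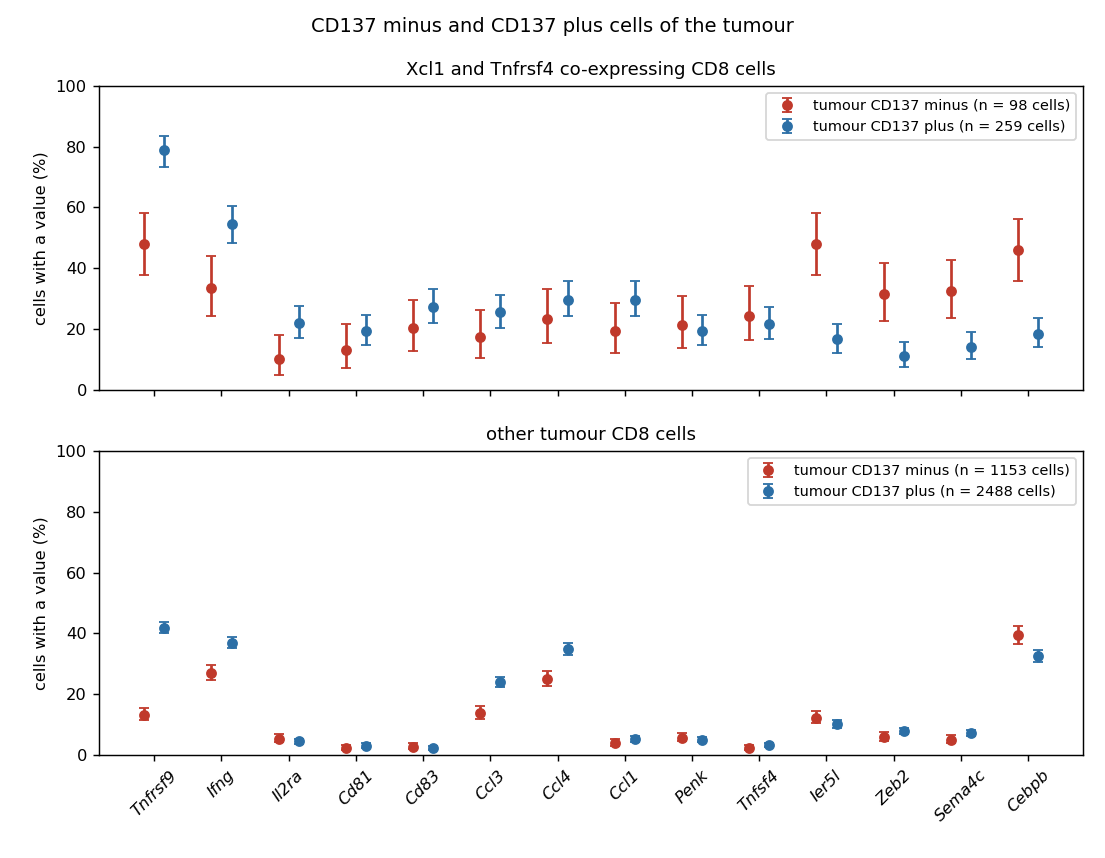
Share of cells with a value (%, with exact 95% binomial intervals) for 14 genes in co-expressing cells (top) and other tumour CD8 cells (bottom), CD137 minus in red and CD137 plus in blue. In co-expressing cells Tnfrsf9 stands at 48.0% in CD137 minus and 78.8% in CD137 plus, Ifng at 33.7% and 54.4%, and Ier5l at 48.0% and 16.6%.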

How the data were processed

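Single-cell 5' libraries of sorted CD8 T cells (10x Chromium) were processed with Cell Ranger 3.0.2 and Seurat 3.0 on mm10, per the submitters' processing notes. How cells were filtered and counts corrected was not stated there. The authors deposited natural log values for 12763 genes in 6965 cells. Taking the exponential and subtracting 1 gave whole numbers throughout (relative tolerance 1e-09), called corrected counts because totals per cell varied little within a library, so no count model was used. Libraries were grouped by CD137 status.

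Corrected counts were summed over a set of cells, scaled to 1e+06 (CPM) and compared as log2 ratios with a pseudocount of 1 CPM, which understate changes of low genes. A gene was tested where 1 set reached 50 CPM and 10% of its cells had a value, and the second set was above 0. The 10 genes of the rule were left out. The limit was a log2 ratio of 1, in both libraries for co-expressing over other cells. Named were the 12 genes highest and the 12 lowest by the smaller of the libraries' ratios, and the 12 furthest above and below 0 for CD137 minus over plus, leaving out receptor segments, immunoglobulin, mitochondrial, ribosomal, haemoglobin and sex-linked genes, and gene models without a name. 1 gene that the rule named as lower is not reported here. Other examples were taken from lists after their values were seen. The cells, lists and comparisons were chosen with earlier results of these data known. Cells were thinned to 2900 counts where stated (seed 1). The steps were tested on simulated data. With 1 library a group no statistical test was run.

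Alternatives changed the pseudocount, the gene filter, the limit, the centre, the scale, the rule for cells and the reference cells. Mean log values per cell were taken on corrected counts not scaled to the total of each cell. Cells matched on the number of genes, and co-expressing cells with 1300 to 2500 genes, were added after seeing the data, as were the set of Lef1-positive cells and ratios without the highest cell of each set. Sums and intervals were computed with numpy 2.4.6 and scipy 1.17.1 in Python 3.11.15, tables with pandas 2.3.3 and plots with matplotlib 3.10.9, and loci came from GENCODE M21.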

Additional observations from a re-analysis of the deposited data

Results flagged for a closer look

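For CD137 minus over CD137 plus, 11 genes were named as higher and 12 as lower. Of these, 7 had a log2 ratio of opposite sign in the co-expressing cells and in the other tumour CD8 cells. Each was at least 0.2 in size on the side of the other cells. The genes were picked by their ratios in the co-expressing cells, so the change of sign is a description. Mfsd1, Zeb2, Ep300, Sema4c, Il2ra and Cd9 passed the filter only through the library where they were higher. With 1 library a group the difference between these ratios was not tested. It was 1.905 for Areg (1.24 in co-expressing and -0.66 in other cells), 1.791 for Mfsd1 (1.24 and -0.55), 1.554 for Zeb2 (1.22 and -0.33), 1.452 for Ep300 (1.08 and -0.37) and 1.702 for Sema4c (1.07 and -0.64). It was -1.878 for Il2ra (-1.47 and 0.41) and -1.777 for Cd9 (-1.33 and 0.44). The Areg value rests on 1 cell with 36 counts.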

How the results depend on the processing

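No paired analysis was possible because each group is 1 library and cells carry no mouse. With 1 library a group no replicate could be left out. The share of co-expressing cells was 6.30% in CD137 minus after thinning before the selection, and in CD137 plus it stayed within its interval of 8.36 to 10.6. In CD137 minus and CD137 plus it was 4.56% and 5.06% with at least 2 counts of both genes, 10.5% and 12% with no exclusion on Havcr2, Gzmk and Klrg1, and 5.71% and 8.31% without cells that had a marker of another cell type. For co-expressing over other cells, 301 genes were higher and 91 lower with no filter, 298 and 106 at a limit of 0.5, and 0 and 2 on mean log values per cell. Counts of higher genes were 101 against other cells under the same exclusions and 34 against cells matched on the number of genes. For CD137 minus over plus, 9 genes were higher and 20 lower with a pseudocount of 10 CPM, 522 and 507 with no filter, 189 and 313 at a limit of 0.5, 94 and 85 with at least 2 counts of both genes, 92 and 86 after thinning, and 96 and 132 without cells with a marker of another cell type. The higher count was 23 relative to the median, and the lower counts were 0 on mean log values and 20 with no exclusion on Havcr2, Gzmk and Klrg1. Why the counts moved was not tested. Of the values of single genes and list medians, 757 moved by less than 1.5 times, 80 by more, and Areg in CD137 minus over plus reversed, to -1.30 after thinning. With 98 and 259 cells, a gene near 50 CPM rests on few counts in CD137 minus.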

Other observations

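T cell receptor segments were not used by the rule. At least 1 Trbv segment was seen in 91.8% of CD137 minus and 93.8% of CD137 plus co-expressing cells, against 89.8% and 89.3% of the other tumour CD8 cells. The most frequent Trbv segment in co-expressing cells was Trbv12-1, with 23.5% (15.5 to 33.1) in CD137 minus and 17.0% (12.6 to 22.1) in CD137 plus, against 13.4% and 14.1% of the others. Trbv4 stood at 16.3% (9.63 to 25.2) in CD137 minus and 5.79% (3.28 to 9.37) in CD137 plus, against 7.20% and 3.05% of the others. Trav3-3 was seen in 0 of 98 CD137 minus co-expressing cells, which allows a share of up to 3.06% by 3 counts of the total and 3.69% by the exact interval, and in 10.8% (7.30 to 15.2) of CD137 plus ones, against 3.12% and 6.99% of the others. Trav10n was seen in 7.14% and 5.02% of co-expressing cells, against 1.56% and 1.33% of the others. These segments were picked after their values were seen, cells of 1 clone share a segment, and cells are not assigned to mice.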
